A study of Mus musculus with 10 samples.

Results

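Ribosome footprints of cells treated with harringtonine were compared with those of cells treated with puromycin on coding transcripts, separately for the 5' UTR, the open reading frame (ORF) and the 3' UTR. The members were the listed coding transcripts with a mean normalized ORF value of at least 100 in the control libraries, which gave 8532 of 14534 coding transcripts and of 15269 transcripts in all. The rule used only the control libraries. The transcript just inside the threshold was Myl7 with a mean control value of 100.1 and the one just outside was Fam20b with 99.9.

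CGR8 cells, a line of mouse embryonic stem cells grown without feeder cells on gelatin, were kept for 10 min with 2 µg/ml harringtonine or for 20 min with 0.2 mg/ml puromycin, and the control cells received no drug, with equal DMSO in every culture. Each condition has 2 ribosome profiling libraries from separate biological replicates, of 8 such libraries in the series. Cycloheximide was in the ice-cold wash of the cells and in all extracts, with no warm incubation of the cells in it. The drugs differ in concentration, time and solvent of the stock, so that drug, dose and time cannot be told apart, and the mRNA of the treated cells was not measured here. Fewer footprints can therefore not be told apart from less mRNA. The authors added the spike-in RNA in proportion to the amount of RNA, so the values are not per cell.

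Harringtonine binds the large ribosomal subunit and holds ribosomes at the very start of elongation, while ribosomes that are already further along can run on to the stop codon and leave. Puromycin resembles the end of a charged tRNA, is joined to the growing chain and releases it early, wherever the ribosome stands. Both drugs are used to map start codons, because ribosomes that begin anew are found near the start while the rest of the coding sequence empties. The authors of these data question this use. Neither drug raised the relative footprint density on AUG or CUG codons of 5' UTRs. They also found peaks with either drug on sequences that are not known start sites, with little overlap between the drugs. On annotated start codons they report a higher footprint density with each drug for a part of the coding mRNAs.

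The 2 harringtonine libraries held 2802597 and 2535444 reads on coding transcripts, the 2 puromycin libraries 1112838 and 1911536, and the control libraries 9559519 and 11161453. The values are scaled by the authors to equal reads of a spiked-in RNA, so that 1 read counted 1.01 and 0.700 under harringtonine and 2.07 and 1.24 under puromycin. Across the ORFs of the members, the log2 values of the harringtonine replicates had a Pearson correlation of 0.964 and those of the puromycin replicates of 0.954, across transcripts, which are not independent replicates. Levels were less even, as replicate 2 held a median of 0.573 times the value of replicate 1 under harringtonine and 1.04 times under puromycin. All 10 stem cell markers were found on the control ORFs, with mean values from 221 for Tdgf1 to 12115 for Dppa5a. Of 23 markers of other lineages 22 were listed. Those of fibroblasts ranged from 7.25 for Dcn to 14942 for Col1a1, and their 6 values summed to 21320.3 and 16047 in the control, 3017 and 1692 under harringtonine and 4682 and 4904 under puromycin. Those of trophectoderm ranged from 164 for Cdx2 to 7272 for Krt18, with Elf5 not listed. Those of neural cells ranged from 4.49 for Sox1 to 1687 for Tubb3 and those of mesoderm from 121 for Kdr to 636 for T. Those of primitive endoderm ranged from 5.94 for Sox17 to 90.9 for Dab2. The part of such cells in the results was not tested.

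The libraries of the 2 drugs did not overlap in the share of reads that lay on each region. On the 5' UTR lay 28.5% and 32.2% of the coding transcript reads under harringtonine, 20.1% and 17.4% under puromycin, and 3.98% and 4.25% without drug. On the ORF lay 69.4% and 65.9% under harringtonine and 78.4% and 81.0% under puromycin. The 3' UTR held 2.09% and 1.81% under harringtonine and 1.51% and 1.61% under puromycin. For the 5' UTR and the 3' UTR both harringtonine libraries were above both puromycin libraries, and for the ORF below them. With 2 libraries against 2, an exact two-sided permutation test cannot give a p below 0.333.

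The start codon contexts of transcripts with large differences are given here to show what surrounds the start in each direction. Each runs from 12 bases before to 15 bases after the start codon on the transcript, 5' to 3', in GENCODE M21 sequence (GRCm38), with the start codon in capitals and the position of the whole transcript beside the name. The ORFs of Lrp2, Haus5 and Mdn1 had more footprints with harringtonine.
Lrp2 (chr2:69424340-69586065, minus strand): gccgtctccgcgATGgagcgcggggccgcg
Haus5 (chr7:30653716-30664994, minus strand): tctgtgacagccATGgaactaacgcagaaa
Mdn1 (chr4:32657119-32775207, plus strand): cggccggagactATGgagcacctctctgtg
The ORFs of Hmga1b and Rpl32 had fewer.
Hmga1b (chr11:120762794-120764419, plus strand): tagagaaggagaATGagcgagtcgggctca
Rpl32 (chr6:115805505-115808747, minus strand): ttttacggcatcATGgctgccctccggcct
The 5' UTRs of Tuba1b, Nufip2 and Cyfip2 had more footprints with harringtonine.
Tuba1b (chr15:98931425-98934565, minus strand): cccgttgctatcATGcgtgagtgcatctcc
Nufip2 (chr11:77686155-77712741, plus strand): cagccgctttcaATGgaggagaagcccggc
Cyfip2 (chr11:46193855-46312294, minus strand): ggcgccgcagccATGaccacccacgtcact
The 5' UTRs of Nrip1 and Dlgap4 had fewer.
Nrip1 (chr16:76287400-76373827, minus strand): cttgtattgaacATGactcatggagaagag
Dlgap4 (chr2:156721492-156764363, plus strand): catccggccctcATGgctttgtgtctggag

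The bases best known to favour initiation are a purine 3 bases before the ATG and a G right after it. Of 6391 members whose listed ORF started with an ATG and ended with a stop codon in this annotation and whose context was complete, 86.7% had the purine and 54.5% the G. The purine was found in 92.8% of 83 ORFs with more footprints with harringtonine and in 85.2% of 759 with fewer. For the 5' UTR it was found before the main start codon in 89.3% of 1040 transcripts with more, in 77.9% of 86 with fewer and in 84.8% of 2385 tested without a call. The contexts of Nufip2 and Dlgap4 above lack the purine. These shares are descriptions of the letters and were not tested.

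On the ORF, 107 members had more footprints with harringtonine than with puromycin and 1007 had fewer (quasi-likelihood test of edgeR, Benjamini-Hochberg adjusted p under 0.05), of 8532 that all entered the test. Over the 11292 transcripts tested, 1.32% were called higher and 11.0% lower. The median log2 fold change of the members was -0.40 with the authors' spike-in scaling. It rested on the level of the harringtonine replicates, since the median log2 ratio was -0.01 between the replicates numbered 1 and -0.85 between those numbered 2. With TMM scaling, which sets the bulk of transcripts equal, the median was -0.01 and 1349 members were higher and 1394 lower, against backgrounds of 14.0% and 14.2%. All 107 calls of more footprints and 986 of the 1007 calls of fewer were also made with TMM scaling. Both harringtonine libraries lay above both puromycin libraries for 800 members (9.38%) and below them for 3596 (42.1%), and the groups overlapped for 4136.

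**Figure D1:**
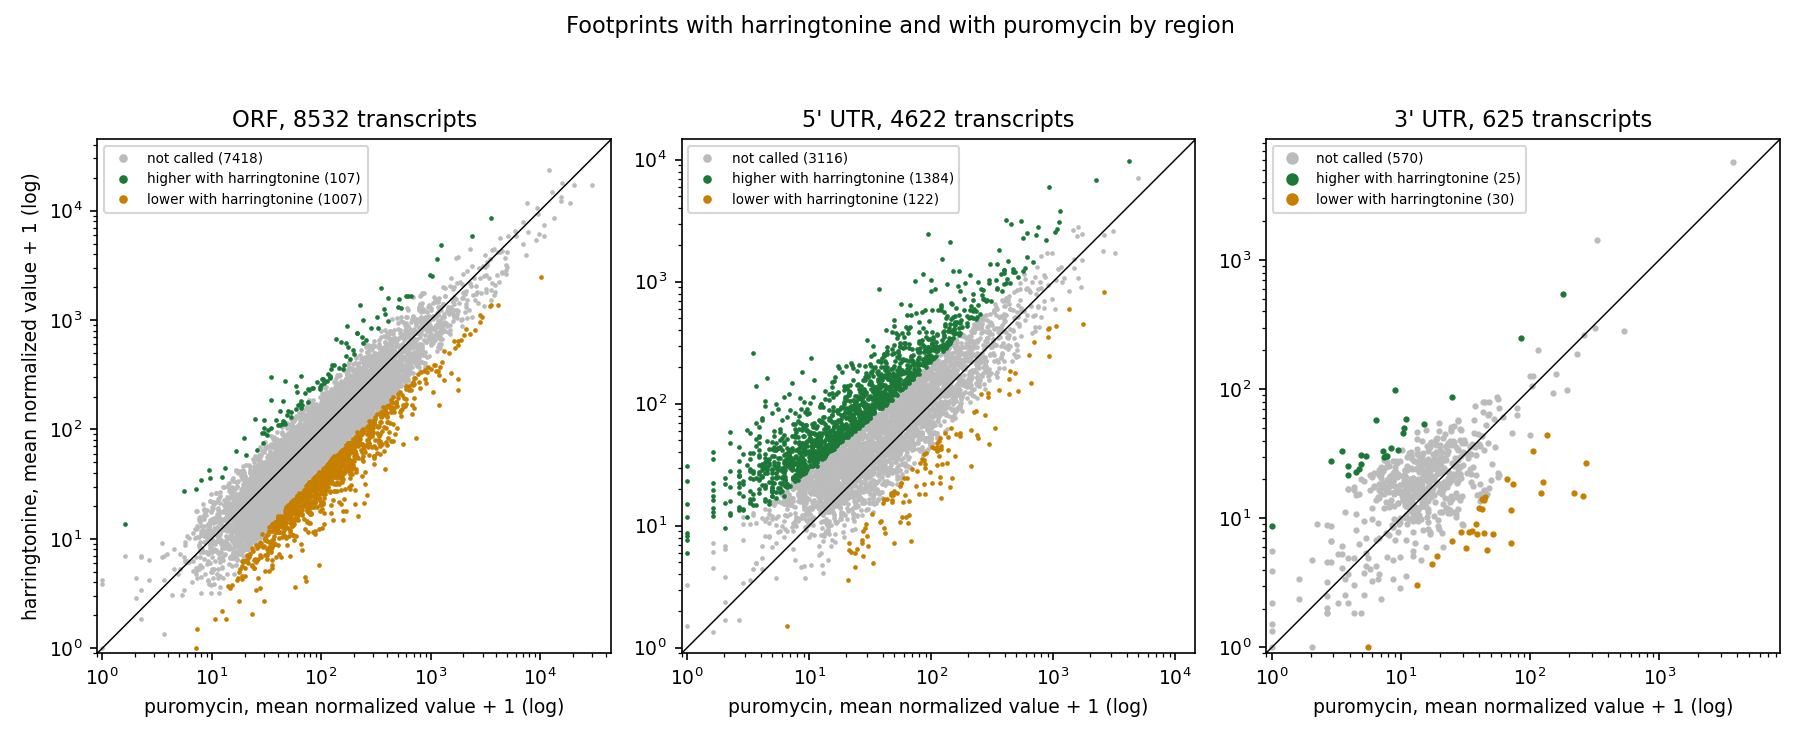
Mean normalized value + 1 with harringtonine (y axis) against puromycin (x axis) on log axes for each member tested in each region, with colours for the calls of edgeR's quasi-likelihood test and a line where both are equal. Most ORF calls lie below the line (1007 against 107) and most 5' UTR calls above it (1384 against 122).

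Among ORFs with at least 20 reads in every library of the higher group, those with the largest excess with harringtonine came from unrelated genes. Tbca, a chaperone that helps fold tubulin, had ORF values of 398 and 201 under harringtonine and 35.2 and 32.3 under puromycin. Hist1h2br, a histone H2B, had 1575 and 1186 under harringtonine and 190.2 and 259 under puromycin. Both lay far above puromycin in both libraries, with log2 fold changes of 3.15 (SE 0.48) and 2.61 (SE 0.46), and adjusted p of 6.85e-08 and 4e-06 by edgeR. In the control Tbca had 144 and 213 and Hist1h2br 195 and 152. Mdn1, a giant ATPase of ribosome assembly, had 12423 and 10312 in the control libraries, 2867 and 1069.5 under harringtonine and 362 and 346 under puromycin, which gave a log2 fold change of 2.48 (SE 0.48, adjusted p = 4.76e-05) by edgeR's quasi-likelihood test. Lrp2 (megalin), a large endocytic receptor, had 3271 and 2800.1 in the control libraries, 373 and 174 under harringtonine and 35.2 and 57.2 under puromycin. Its log2 fold change was 2.53. Haus5, of the augmin complex of the spindle, had 23.3 and 29.4 under harringtonine and 4.14 and 4.97 under puromycin, and Donson, a replication factor, had 219 and 147 under harringtonine and 18.6 and 48.5 under puromycin. The groups of all 6 genes were apart, but Lrp2, Haus5 and Donson were not called without puromycin replicate 1 (log2 fold changes 2.25, 2.39 and 1.91), nor Haus5 without puromycin replicate 2 (2.65).

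The ORFs with the largest deficit with harringtonine under the same rule were short. Rpl32, a protein of the large ribosomal subunit, had 562 and 457 in the control libraries, 20.3 and 9.80 under harringtonine and 194 and 242 under puromycin, which gave a log2 fold change of -3.90 (SE 0.51, adjusted p = 3.17e-10) by edgeR's quasi-likelihood test. Rbx1, the RING subunit of cullin ubiquitin ligases, had 6.09 and 3.50 under harringtonine and 80.6 and 107 under puromycin, and Rps18, of the small ribosomal subunit, had 24.4 and 16.1 under harringtonine and 192 and 301 under puromycin. Hmga1b, a chromatin protein, had 2.03 and 4.20 under harringtonine and 70.3 and 74.6 under puromycin. Its 5' UTR held 430.2 and 202 under harringtonine and 192 and 189 under puromycin, so that the ORF was nearly empty with harringtonine while the 5' UTR was not (adjusted p of the 5' UTR = 0.213 by edgeR). Hist1h2bl, another histone H2B, had 2.03 and 4.90 under harringtonine and 64.1 and 75.9 under puromycin, and the transcript ENSMUST00000075178, which has no symbol in the tables used, had 1.01 and 4.20 under harringtonine and 62.0 and 51.0 under puromycin. Their log2 fold changes lay between -4.42 for Hmga1b and -3.63 for Rps18. Reads with several matches on the genome were left out by the authors, so values of histone, ribosomal protein and Hmga1b transcripts, which have close copies, are uncertain.

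Up to 8000 nt, what remained of the control footprints fell with the length of the ORF, with both drugs. In the 177 members with ORFs of up to 300 nt, the median member kept 56.8% and 32.7% of the mean control value in the harringtonine libraries and 50.2% and 51.6% in the puromycin libraries. From 1000 to 2000 nt (3190 members) it kept 14.3% and 8.60% under harringtonine and 15.1% and 15.7% under puromycin. From 4000 to 8000 nt (603 members) it kept 8.36% and 4.63% under harringtonine and 7.57% and 8.28% under puromycin. Up to this length the ratio between the drugs moved little, with median log2 ratios of harringtonine to puromycin between -0.44 and -0.19.

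Above 8000 nt the ratio of harringtonine to puromycin was higher than in the class before, while the order of the drugs within each replicate number stayed the same. The median member kept 10.3% and 4.75% of the control under harringtonine, above the 8.36% and 4.63% of the class before. Under puromycin it kept 5.13% and 6.22%, below the 7.57% and 8.28% of the class before. The 112 members over 8000 nt had a median log2 ratio of 0.26, with 0.75 between the replicates numbered 1 and -0.34 between those numbered 2. For ORFs of 4000 to 8000 nt these were 0.12 and -0.82, so that the longest ORFs stood above their neighbours in length in both pairs, although the sign of the median depended on the replicate. Of the 112, 17 (15.2%) had more footprints with harringtonine and 0 had fewer by edgeR's quasi-likelihood test, and 43 and 0 with TMM scaling, as against backgrounds of 1.32% and 11.0%. Removal of 1 replicate in turn gave medians from -0.27 to 0.68.

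The list of giant proteins, of which 25 were members, had a median log2 fold change of 0.94 on the ORF. It overlaps the class of ORFs above 8000 nt, so that its counts are not a separate result. More footprints with harringtonine were found for 10 of the 25 and fewer for 0 by edgeR (backgrounds 1.32% and 11.0%), and with TMM scaling for 18 and 0 (14.0% and 14.2%). Dst (dystonin), which links cytoskeletal filaments and has an ORF of 23151 nt, had 2196 and 1009.8 in the control libraries, 1260.1 and 496 under harringtonine and 153 and 193 under puromycin, which gave a log2 fold change of 2.34 (SE 0.47, adjusted p = 7.09e-05). Macf1, a related linker of actin and microtubules (22059 nt), had 2655 and 1278 in the control libraries, 872 and 381 under harringtonine and 118 and 182 under puromycin. Kmt2d, a histone H3 lysine methyltransferase (16764 nt), had 2268 and 2077 in the control libraries, 948 and 402 under harringtonine and 116 and 157 under puromycin. In these and in Mdn1 both harringtonine libraries lay above both puromycin libraries, as they did in 15 of the 25. Dync1h1, the heavy chain of cytoplasmic dynein (13932 nt), had 981 and 542 under harringtonine and 199 and 221 under puromycin (log2 fold change 1.86), and Hspg2 (perlecan, 13125 nt) had 1466 and 803 under harringtonine and 358 and 412 under puromycin (log2 fold change 1.56).

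Giant ORFs did not all behave alike. Huwe1, a ubiquitin ligase with an ORF of 13134 nt, had 649 and 318 under harringtonine and 397 and 429 under puromycin, and the groups overlapped. Plec (plectin, 13629 nt) had 609.8 and 335 under harringtonine and 364 and 431 under puromycin, which overlapped as well. The lowest value of the list was that of Atm, the kinase of the DNA damage response, with 54.8 and 29.4 under harringtonine and 70.3 and 60.9 under puromycin (log2 fold change -0.65, adjusted p = 0.411 by edgeR). Its ORF of 9198 nt is among the shorter ones of this list.

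**Figure D2:**
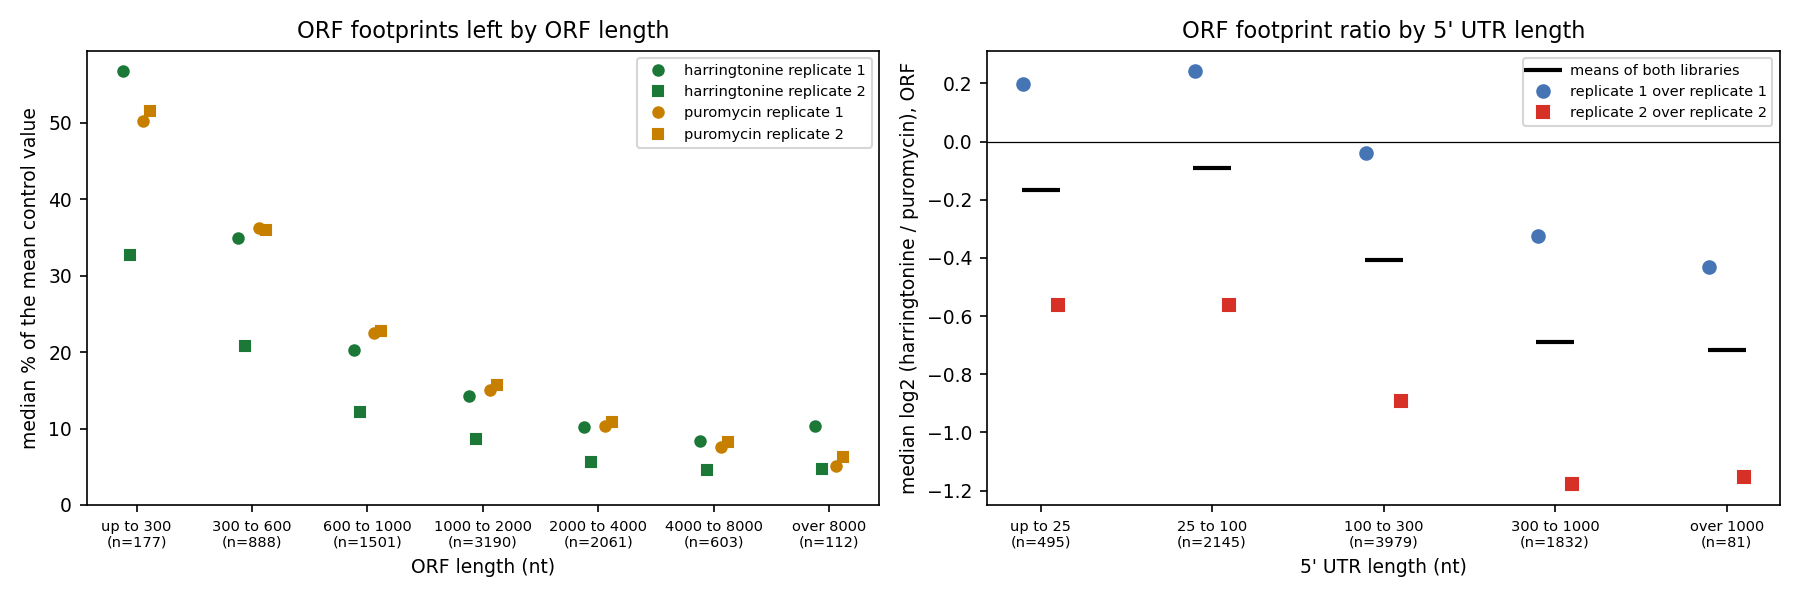
Left, the median share of the mean control ORF value that was left in each drug library by class of ORF length. Right, the median log2 ratio of harringtonine to puromycin on the ORF by class of 5' UTR length, for the means of both libraries and for the libraries of each replicate number. The shares fall with length up to 8000 nt, from 32.7% to 56.8% in the shortest class. Over 8000 nt they are 10.3% and 4.75% with harringtonine, above the class before, and 5.13% and 6.22% with puromycin, below it. The ratio falls from -0.09 at 25 to 100 nt of 5' UTR to -0.72 over 1000 nt, in both pairs.

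The ratio between the drugs on the ORF also went with the length of the 5' UTR. The median log2 ratio of harringtonine to puromycin was -0.17 for 495 members with 5' UTRs of up to 25 nt, -0.09 from 25 to 100 nt (2145 members), -0.41 from 100 to 300 nt (3979), -0.69 from 300 to 1000 nt (1832) and -0.72 over 1000 nt (81). Between the replicates numbered 1 the medians were 0.24 at 25 to 100 nt and -0.33 at 300 to 1000 nt, and between those numbered 2 -0.56 and -1.18. The share of the control that was left fell from 14.5% at 25 to 100 nt to 9.10% at 300 to 1000 nt with harringtonine, while with puromycin it was 16.4% and 15.8%. Members with fewer footprints with harringtonine were 4.90% at 25 to 100 nt and 20.6% at 300 to 1000 nt, and with TMM scaling 7.46% and 26.7%. Within ORFs of 1000 to 2000 nt the median went from -0.09 at 25 to 100 nt of 5' UTR (795 members) to -0.75 at 300 to 1000 nt (665), and within ORFs of 4000 to 8000 nt from -0.03 (99) to -0.55 (180).

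Immediate early genes, which are transcribed at once after a stimulus and whose mRNAs are short-lived, had fewer ORF footprints with harringtonine. Of the 15 members of this list, 10 were lower and 0 higher by edgeR's quasi-likelihood test, against backgrounds of 11.0% and 1.32%, and 11 and 1 with TMM scaling (14.2% and 14.0%), where the higher one was Ier3. The median log2 fold change was -1.76. The median member kept 20.3% of the control value with harringtonine and 67.6% with puromycin. In 14 of the 15 both harringtonine libraries lay below both puromycin libraries.

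Jun, a subunit of the AP-1 transcription factor, had ORF values of 1214 and 979 in the control libraries, 383 and 193 under harringtonine and 1731 and 1847 under puromycin, which gave a log2 fold change of -2.64 (SE 0.47, adjusted p = 4e-06) by edgeR. Both puromycin libraries were above both controls and both harringtonine libraries below them. The same order was found for Junb, its relative, with 966 and 938 in the control libraries, 417 and 272 under harringtonine and 1336 and 999 under puromycin, and for Ier5 with 253 and 192 in the control libraries, 159 and 169 under harringtonine and 719.6 and 429 under puromycin. Puromycin exceeded the control in both libraries in 4 of the 15 genes (Jun, Junb, Ier5 and Ier2, named after their values were seen) and harringtonine in 0, as compared with 43 and 29 of all 8532 members. The controls are shared by these 2 counts. The puromycin cells had also been treated for 10 min longer.

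Fosl2, another AP-1 subunit, had 350.1 and 377 in the control libraries, 20.3 and 14.0 under harringtonine and 174 and 142 under puromycin, and a log2 fold change of -3.21, the largest of the list. Egr1, a zinc finger transcription factor, had 978 and 829 in the control libraries, 111 and 69.3 under harringtonine and 548 and 389 under puromycin. Fos had 169 and 102 in the control libraries, 26.4 and 18.9 under harringtonine and 86.9 and 123 under puromycin. In all of these the groups were apart. Myc, a growth regulator, had 1859 and 1727 in the control libraries, 183 and 117 under harringtonine and 616 and 450.1 under puromycin (log2 fold change -1.83), whereas its 5' UTR had 615 and 469 under harringtonine and 474 and 315 under puromycin (adjusted p = 0.45 by edgeR). Mycn, its relative in stem cells, had 829.9 and 498 under harringtonine and 1123 and 1447 under puromycin on the ORF, with an adjusted p of 0.16. Ier2 had 2591 and 1270.4 under harringtonine and 3243 and 3145 under puromycin (adjusted p = 0.306), and Ier3 was the only gene of the list whose groups overlapped, with 310.5 and 171 under harringtonine and 239.9 and 162 under puromycin.

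**Figure D3:**
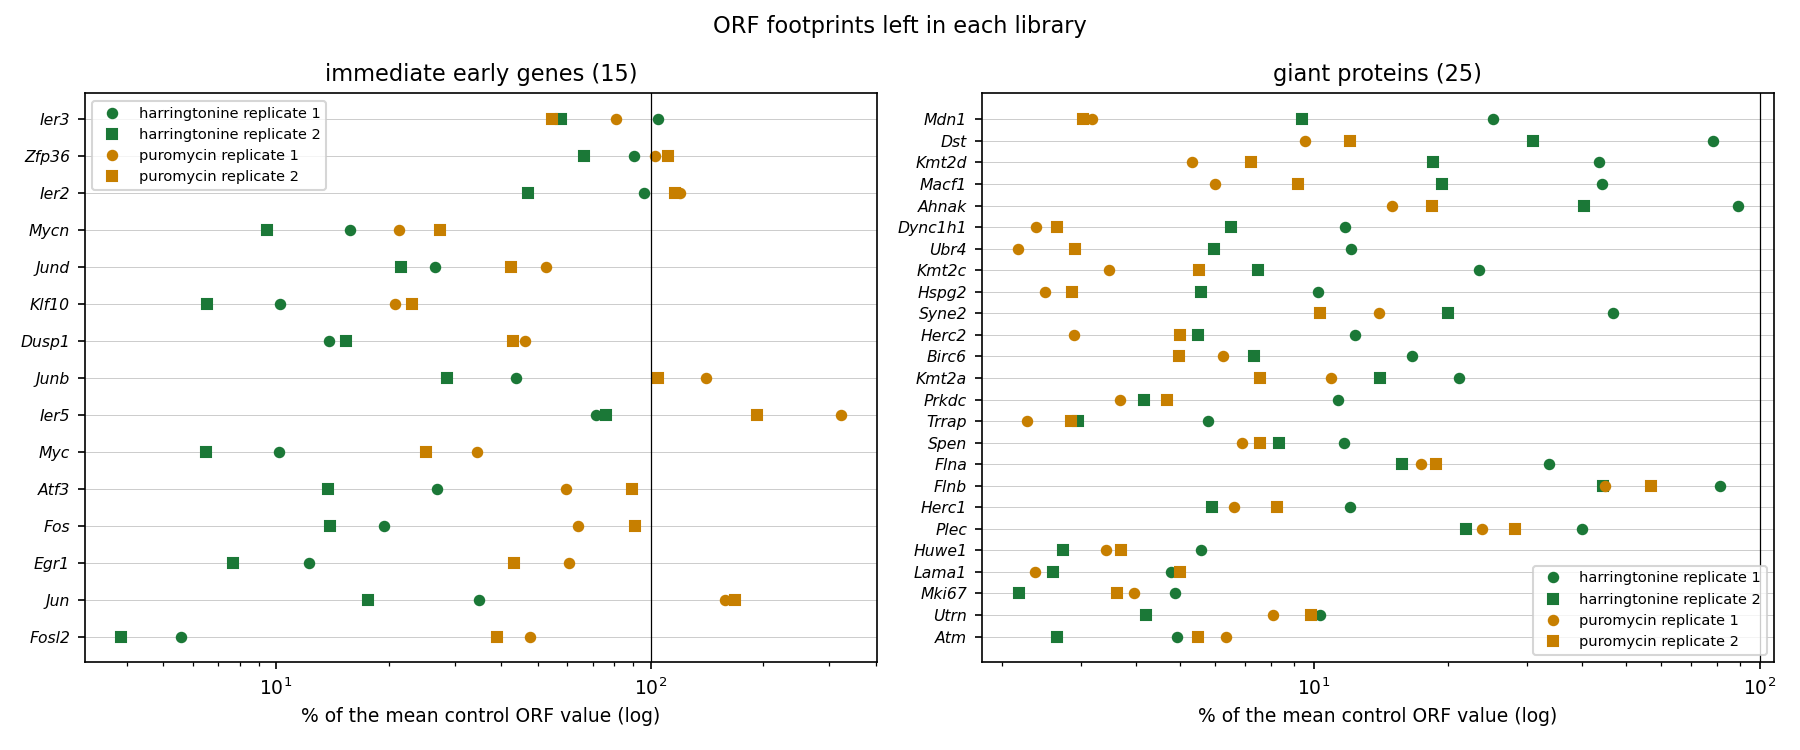
ORF footprints left in each harringtonine and puromycin library as percent of the mean control value (log axis), for the 15 immediate early genes (left) and the 25 giant proteins (right), ordered by the log2 fold change between the drugs. Harringtonine lies left of puromycin in 14 of the 15 immediate early genes, and right of it in both libraries in 15 of the 25 giant proteins.

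Zinc finger genes named Zfp, most of which encode DNA-binding repressors or other transcription factors, shared the direction of the immediate early genes. Of 143 members 42 were lower and 0 higher with harringtonine by edgeR (backgrounds 11.0% and 1.32%), with a median log2 fold change of -0.91, and 50 and 7 with TMM scaling (14.2% and 14.0%). Both harringtonine libraries lay below both puromycin libraries in 96 of them. The median member kept 10.1% of the control with harringtonine and 18.0% with puromycin. The 3 with the highest control values were not called. Zfp42 (Rex1), a stem cell marker, had 573 and 329.7 under harringtonine and 747 and 731 under puromycin, Zfp207 had 693 and 372 under harringtonine and 511 and 572 under puromycin and Zfp462 had 318 and 165 under harringtonine and 289.5 and 287 under puromycin, with adjusted p of 0.326, 0.981 and 0.76.

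Among mRNAs known for upstream open reading frames or for translation under stress, 3 of 14 were lower and 0 higher by edgeR, with a median of -0.88 and backgrounds of 11.0% and 1.32%. With TMM scaling 7 were lower and 1 higher (14.2% and 14.0%). The 3 were Odc1, Atf4 and Mdm2, named after their values were seen. Atf4, the transcription factor of the integrated stress response, had 660.2 and 563 in the control libraries, 95.4 and 37.8 under harringtonine and 213 and 427 under puromycin (log2 fold change -2.29). Odc1, the rate-limiting enzyme of polyamine synthesis, had 272 and 302 in the control libraries, 4.06 and 4.20 under harringtonine and 37.2 and 22.4 under puromycin (log2 fold change -2.77). On the 5' UTR of Atf4 stood 3010.3 and 1825 under harringtonine and 2151 and 3030.3 under puromycin and on that of Odc1 39.6 and 31.5 under harringtonine and 22.7 and 6.22 under puromycin, with adjusted p of 0.883 and 0.0756 by edgeR.

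Of 19 pluripotency factors 2 were lower and 0 higher with harringtonine by edgeR, Sox2 and Klf4, with a median of -0.43 over the list. This share is near the backgrounds of 11.0% and 1.32%, and the median near the -0.40 of all members. Sox2 had 3222 and 3585 in the control libraries, 472 and 304 under harringtonine and 1141 and 1045 under puromycin, which gave a log2 fold change of -1.50 (SE 0.45, adjusted p = 0.0146). Klf4 had 447 and 385 in the control libraries, 54.8 and 52.5 under harringtonine and 119.9 and 145 under puromycin, and its groups were also apart. Pou5f1 (Oct4) had 556 and 375 under harringtonine and 511 and 742 under puromycin and Sall4 had 558 and 344 under harringtonine and 505 and 556 under puromycin, which both overlapped. Tcl1, a cofactor of Akt kinases, was the highest of the list, with 533 and 292 under harringtonine and 161 and 199 under puromycin, and did not pass the test (log2 fold change 1.19, adjusted p = 0.0513).

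On the 5' UTR the balance was the reverse of that on the ORF. Of 4622 members with enough reads to be tested, 1384 had more footprints with harringtonine and 122 fewer by edgeR's quasi-likelihood test, against 27.7% and 3.13% of the 5500 transcripts tested. The median log2 fold change was 0.76, with 0.90 between the replicates numbered 1 and 0.55 between those numbered 2. TMM scaling of these reads brought the median to 0.09, with 804 higher and 704 lower (backgrounds 16.0% and 15.7%). All 804 were among the 1384. Both harringtonine libraries lay above both puromycin libraries in 2643 members and below them in 504. The filter on the mean reads of all libraries let in transcripts whose reads came mainly from the drug libraries, and 919 were higher and 120 lower among those that passed on the control reads, a filter chosen after the data were seen (backgrounds 21.0% and 3.68%).

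Nufip2, an RNA-binding partner of FMRP, had 5' UTR values of 5.89 and 3.63 in the control libraries, 237 and 279 under harringtonine and 0 and 4.97 under puromycin. Its log2 fold change was 6.37 (SE 0.70, adjusted p = 2.9e-16 by edgeR). Its ORF held 1466 and 1007 under harringtonine and 2033 and 1491 under puromycin, which overlapped. Lsm1, of the ring that starts mRNA decapping, had 3.54 and 7.25 in the control libraries, 194 and 86.1 under harringtonine and 4.14 and 1.24 under puromycin on the 5' UTR, and Pomp, a proteasome assembly factor, had 5.89 and 7.25 in the control libraries, 235 and 86.1 under harringtonine and 2.07 and 4.97 under puromycin. Cyfip2, of the WAVE complex, had 43.6 and 34.3 under harringtonine and 0 and 1.24 under puromycin. In all 4 the 5' UTR was nearly empty with puromycin and occupied with harringtonine. In Nufip2, Lsm1 and Pomp it was nearly empty without drug as well. The control reads of Nufip2, Lsm1 and Pomp would not pass the filter on control reads, so these genes entered the test through the drug libraries. Their low control values follow in part from this selection and are not a separate result.

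In Tuba1b, an alpha tubulin, and Cdc37, a kinase cochaperone, both puromycin libraries were at 0. Tuba1b had 5' UTR values of 35.5 and 23.8 with harringtonine and 1.18 and 0 in the control, at least 5.97-fold above the floor of 3 reads per library in puromycin. Tuba1b would also not pass the filter on control reads. Cdc37 had 29.4 and 15.4 with harringtonine, at least 4.51-fold higher. The ORF of Cdc37 had 1132 and 583 under harringtonine and 883 and 803 under puromycin. With the 10 such members at their bound the median log2 fold change of the 5' UTR stayed at 0.76.

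The 5' UTRs with fewer footprints with harringtonine were occupied without drug as well. Snx19, a sorting nexin, had 127 and 113 in the control libraries, 6.09 and 7.00 under harringtonine and 72.4 and 63.4 under puromycin, which gave a log2 fold change of -3.34 (SE 0.60, adjusted p = 1.76e-06) by edgeR. Rock1, a kinase that acts on the actin cytoskeleton, had 124 and 113 in the control libraries, 16.2 and 15.4 under harringtonine and 128 and 109 under puromycin, and Nrip1, a corepressor of nuclear receptors, had 114 and 102 in the control libraries, 26.4 and 13.3 under harringtonine and 149 and 137 under puromycin. Dlgap4, a scaffold protein, had 169.8 and 149 in the control libraries, 20.3 and 39.9 under harringtonine and 223 and 201 under puromycin. In all 4 the harringtonine libraries were far below both controls, while puromycin was below the control in Snx19, within its range or near it in Rock1 and above it in Nrip1 and Dlgap4. The phosphatase Ptpn14 had 67.2 and 64.4 in the control libraries, 11.2 and 1.40 under harringtonine and 51.7 and 46.0 under puromycin, and Fosl2 had 126 and 119.7 in the control libraries, 53.8 and 37.8 under harringtonine and 337 and 262 under puromycin. Snx19, Rock1, Nrip1, Dlgap4 and Fosl2 were lower on the ORF too (log2 fold changes from -3.21 to -1.65), while Ptpn14 did not pass the test there (adjusted p = 0.163).

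The difference on the 5' UTR went with its length and with upstream ATGs, which can start short reading frames ahead of the main one. The median log2 fold change was 1.43 for 484 members with 5' UTRs of up to 100 nt, 0.68 from 200 to 400 nt (1766) and -0.39 over 1000 nt (72). With TMM scaling the shortest and the longest class had 0.76 and -1.05. It was 1.21 for 1382 transcripts without an upstream ATG, 0.78 for 849 with 1, 0.39 for 760 with 2 to 3 and 0.07 for 520 with at least 4. More footprints with harringtonine were called in 44.7% of the transcripts without an upstream ATG and in 12.3% of those with at least 4, and fewer in 1.01% and 6.15%. The classes passed the read filter unequally, as a mean of 10 control reads was reached by 985 of the 1382 without an upstream ATG and 492 of the 520 with at least 4. Among these the medians were 1.00 and 0.04, and their shares of calls are not given here. Of the 86 transcripts with fewer footprints with harringtonine and a checked start, 83.7% had an upstream ATG, of the 1040 with more 40.6%, and of the 2385 without a call 68.6%. Upstream ATGs and 5' UTR length go together and were not separated.

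**Figure D4:**
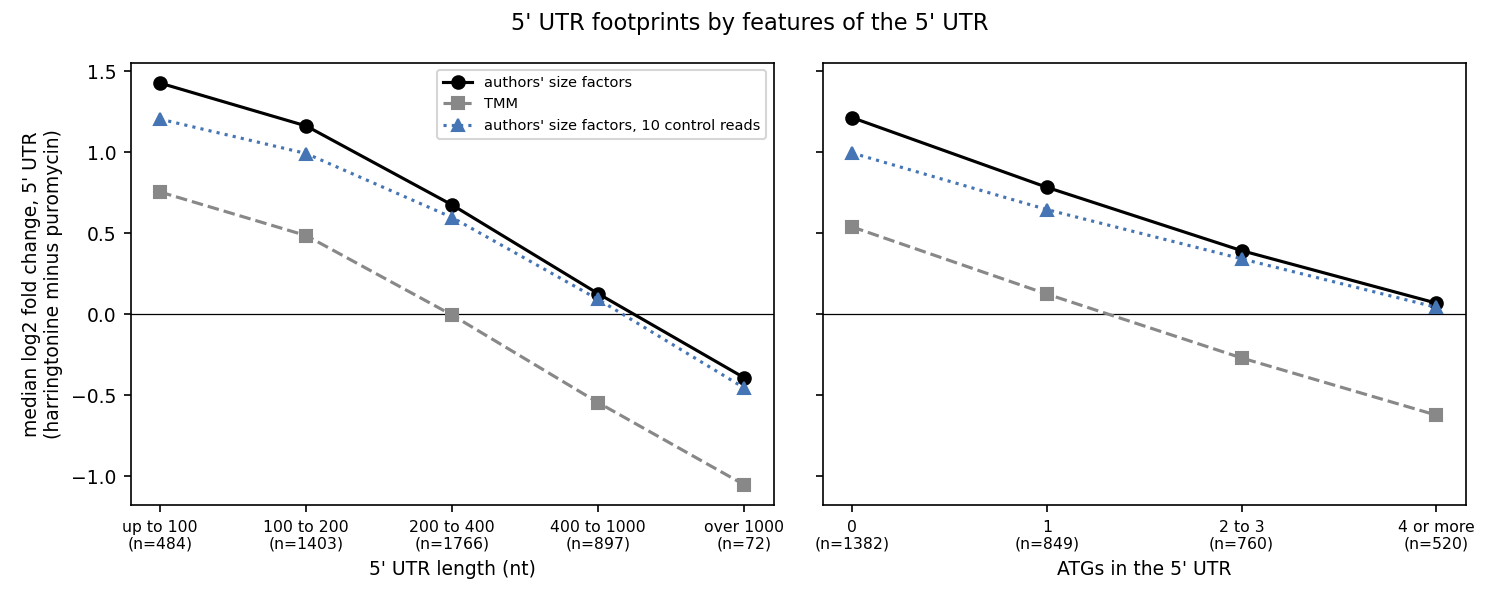
Median log2 fold change of 5' UTR footprints, harringtonine minus puromycin, by 5' UTR length (left) and by the number of ATGs in the 5' UTR (right), with the authors' size factors, with TMM scaling and for transcripts with a mean of 10 control reads. All 3 lines fall, with the authors' size factors from 1.43 to -0.39 for length and from 1.21 to 0.07 for ATGs, and TMM lies lower throughout and crosses 0.

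The ratio of 5' UTR to ORF footprints was higher with harringtonine in 2649 of 4622 members and lower in 59 by edgeR's test of the interaction of drug and region, against 54.7% and 1.38% of the 5278 transcripts tested, with a median log2 ratio of ratios of 1.45. As both regions come from the same libraries, spike-in scaling cancels in this ratio. With TMM scaling of each region by itself, which removes the difference shared by the bulk of transcripts, the median was 0.15 and the counts 593 and 382 (backgrounds 11.7% and 8.09%). Of 4622 members tested in both regions, 140 had fewer ORF and more 5' UTR footprints with harringtonine, 2 the opposite, 15 more in both and 45 fewer in both. Cbx3 (HP1 gamma), which binds methylated histone H3, had 0 and 0 under harringtonine and 6.20 and 6.22 under puromycin on the ORF and 57.8 and 70.0 under harringtonine and 8.27 and 24.9 under puromycin on the 5' UTR, with the highest ratio of ratios beside Cdc37, Tuba1b and Nufip2, of which the call of Tuba1b was lost without puromycin replicate 2 (log2 ratio of ratios 5.73). Its ORF value with puromycin was at least 2.41-fold above the floor of 3 reads per library in harringtonine.

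The lowest ratio was that of Kmt2d, with 5' UTR values of 86.1 and 35.4 in the control libraries, 12.2 and 10.5 under harringtonine and 70.3 and 59.7 under puromycin. As its ORF was higher with harringtonine, the log2 ratio of ratios was -4.66 (SE 0.48, adjusted p = 1.59e-06 by edgeR). Ahnak, a giant scaffold protein, had 497 and 314 under harringtonine and 631 and 1180.0 under puromycin on the 5' UTR and 2202 and 991 under harringtonine and 368 and 454 under puromycin on the ORF, and a log2 ratio of ratios of -3.00. Fau, a ribosomal protein made as a fusion with a ubiquitin-like domain, had 23.3 and 29.4 under harringtonine and 41.4 and 31.1 under puromycin on the 5' UTR and 249.6 and 187 under harringtonine and 53.8 and 65.9 under puromycin on the ORF (-2.24). Supt20, of the SAGA complex, had 448 and 304 under harringtonine and 263 and 251 under puromycin on the 5' UTR but its ORF held 19.3 and 6.30 under harringtonine and 0 and 1.24 under puromycin, which is 1 read with puromycin. Its call was lost in DESeq2 and without harringtonine replicate 1 or either puromycin replicate, with log2 ratios of ratios from -6.19 to -2.56.

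On the 3' UTR, 625 members had enough reads. More footprints with harringtonine were called for 25 and fewer for 30 by edgeR's quasi-likelihood test, against 3.38% and 4.6% of the 739 transcripts tested, with a median log2 fold change of 0.36. With TMM scaling 52 were higher and 74 lower (backgrounds 7.17% and 12.3%), including all 25 and all 30. Both harringtonine libraries lay above both puromycin libraries in 211 members and below them in 110. The ratio of 3' UTR to ORF footprints was higher with harringtonine in 216 and lower in 41 (backgrounds 31.0% and 7.39%), and with TMM scaling of each region in 79 and 81 (11.0% and 14.5%).

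The 2 sets of 3' UTR calls came from ORFs of different length. The 30 with fewer footprints with harringtonine had a median ORF of 379.5 nt, from 165 to 1314 nt, and the 25 with more one of 2451 nt, from 132 to 13770 nt. The 570 without a call had a median of 1086 nt. Over all 625, the median log2 fold change on the 3' UTR went from -0.46 for ORFs of up to 600 nt (181 members) through 0.61 (1000 to 2000 nt, 197) and 0.96 (2000 to 4000 nt, 103) to 1.11 over 4000 nt (32). With TMM scaling it went from -0.65 to 0.88 in the same order. Fewer footprints with harringtonine were called in 26 of the 181 with the shortest ORFs and in 0 of the 135 with ORFs over 2000 nt, and more in 2 and 15. Among the 754 members that passed on the control reads, a filter chosen after the data were seen, 5 were higher and 23 lower (backgrounds 0.63% and 3.04%). Of these, 0 and 20 fell among 264 ORFs of up to 600 nt and 2 and 0 among 121 over 2000 nt, so that the higher calls are too few to set against length. The median log2 fold change under this filter was -0.47 up to 600 nt, 0.52 from 1000 to 2000 nt and 0.94 over 4000 nt.

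Metallothioneins, small proteins that bind zinc and copper, showed the largest deficit among transcripts with at least 20 reads in every puromycin library. Mt2 had 3' UTR values of 66.0 and 66.2 in the control libraries, 21.3 and 6.30 under harringtonine and 239.9 and 269.8 under puromycin, which gave a log2 fold change of -4.25 (SE 0.58, adjusted p = 1.84e-10) by edgeR. Mt1 had 88.4 and 51.7 in the control libraries, 18.3 and 11.2 under harringtonine and 169.6 and 269 under puromycin. Both puromycin libraries were far above both controls and both harringtonine libraries below them. On their ORFs Mt2 had 1482 and 1009 under harringtonine and 1830.1 and 2672 under puromycin and Mt1 5735 and 2066 under harringtonine and 6243 and 8530.2 under puromycin, with adjusted p of 0.212 and 0.187. Their 5' UTRs turned the other way, with 485 and 345 under harringtonine and 108 and 173 under puromycin for Mt2 and 1750.2 and 1068 under harringtonine and 275 and 419 under puromycin for Mt1 (log2 fold changes 1.55 and 2.02).

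Replication-dependent histones, whose mRNAs end in a stem-loop and carry no poly(A) tail, followed the metallothioneins on the 3' UTR. Of the 10 histone members tested there, 9 had fewer footprints with harringtonine and 0 more (backgrounds 4.6% and 3.38%), with a median log2 fold change of -2.45, and in all 10 both harringtonine libraries lay below both puromycin libraries. With TMM scaling all 10 were called lower (12.3%). Hist1h4h had 11.8 and 5.44 in the control libraries and Hist1h2ag 16.5 and 4.53, which is below a mean of 10 reads. Both were among the 9, entered the test through the drug libraries and would not pass the filter on control reads. Calls of this list under that filter are not given here. Hist1h4d had 16.5 and 28.1 in the control libraries, 8.12 and 2.80 under harringtonine and 60.0 and 79.6 under puromycin (log2 fold change -3.74), and Hist1h4c had 38.9 and 32.6 in the control libraries, 20.3 and 9.10 under harringtonine and 109.6 and 133 under puromycin. The linker histone Hist1h1c had 18.9 and 19.9 in the control libraries, 30.4 and 5.60 under harringtonine and 105 and 147 under puromycin. In Hist1h4d, Hist1h4c and Hist1h1c both puromycin libraries stood above both controls. This was not so in Hist1h2bk, Hist1h2ag and Hist1h1a. Hist1h3b did not pass the test, with 18.3 and 10.5 under harringtonine and 45.5 and 46.0 under puromycin (adjusted p = 0.0553 by edgeR). Zfp703 had 441 and 425 in the control libraries, 35.5 and 16.1 under harringtonine and 275 and 264 under puromycin on the 3' UTR, so that puromycin left more than harringtonine but less than the control.

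Among transcripts with at least 20 reads in every harringtonine library, the largest excess on the 3' UTR was found for Sox2, the pluripotency factor, with 56.6 and 32.6 in the control libraries, 123 and 72.1 under harringtonine and 6.20 and 9.95 under puromycin (a log2 fold change of 3.52 (SE 0.63, adjusted p = 4.3e-06) by edgeR). Its ORF was lower with harringtonine, as given above, and its 3' UTR higher. Plec had 23.6 and 12.7 in the control libraries, 30.4 and 23.1 under harringtonine and 0 and 3.73 under puromycin, Mycn 5.89 and 5.44 in the control libraries, 34.5 and 29.4 under harringtonine and 0 and 4.97 under puromycin and Zcchc14, a zinc knuckle protein, 11.8 and 1.81 in the control libraries, 63.9 and 49.7 under harringtonine and 2.07 and 8.70 under puromycin. In all 4 both harringtonine libraries lay above both puromycin libraries. The control reads of Mycn and Zcchc14 were below a mean of 10, so both entered the test through the drug libraries and would not pass the filter on control reads. The calls of Plec, Mycn and Zcchc14 were lost without puromycin replicate 1, with log2 fold changes of 2.80, 2.65 and 2.69.

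**Figure D5:**
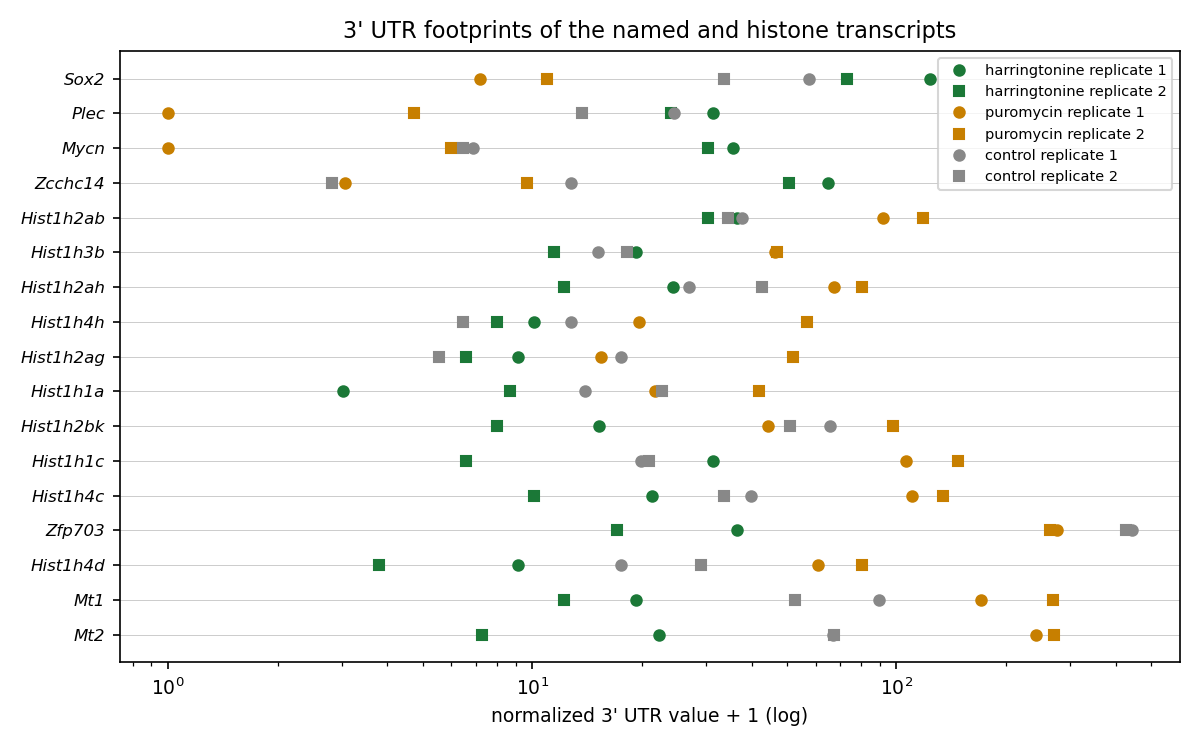
Normalized 3' UTR value + 1 (log axis) in each control, harringtonine and puromycin library for the 8 transcripts named for their 3' UTR and the 10 histones tested (Hist1h4d is both), ordered by the log2 fold change between the drugs. The puromycin points lie right of the harringtonine points in all 10 histones, in Mt1, Mt2 and Zfp703, and left of them in Sox2, Plec, Mycn and Zcchc14.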

How the data were processed

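The authors aligned SOLiD reads of the ribosome profiling libraries to mm10 (GRCm38), kept matches of 26 to 36 nucleotides, left out reads with multiple matches and counted them per region of 1 transcript per gene. Their deposited values are a signal, namely read counts scaled to equal reads of a spike-in RNA with size factors. Each value divided by that of 1 read in its library gave a whole number for 100% of the values (within 0.1% of the read number), so that the reads and size factors were recovered. The tests had been planned for counts and were run on these reads. The submitters' processing notes list Picard 1.38. The transcriptome libraries were not used here. Blank 5' UTR values, found where the ORF started within the leading 10 bases, were taken as 0.

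Each region was tested with edgeR 4.0.16 (quasi-likelihood test, limma 3.58.1, R 4.3.3) scaled with the size factors of the authors, in a joint fit of the 4 conditions with harringtonine against puromycin as the contrast, over transcripts with a mean of at least 10 reads in the 8 libraries. P-values were adjusted over all transcripts tested (Benjamini-Hochberg, 0.05). Ratios of UTR to ORF were tested as the interaction of drug and region, with a term for each library. Values of 0 in both libraries of a group were set to a floor of 3 reads per library for fold bounds, and medians of log2 ratios by length used a pseudocount of 1 on the normalized values. Alternatives were TMM and exchanged size factors, DESeq2 1.42.0, limma, other filters, the 2 drugs alone, a replicate block and leaving out each library. A filter on control reads was added after the data were seen. The test was tried on simulated counts with known changes. Python 3.11.15, numpy 2.4.6, pandas 2.3.3 and matplotlib 3.10.9 were used for the rest.

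The named genes are, among called members with groups that do not overlap and at least 20 reads in every library of the higher group, the 6 with the largest change in each direction on the ORF and on the 5' UTR, the 4 on the 3' UTR and in the 5' UTR to ORF ratio, and the 3 members of each gene list with the highest control value. Not every item named by this rule is reported here. The members and lists were chosen with earlier results of these data known. Other members of the lists and the examples on the histone 3' UTRs were chosen after their values were seen. Transcripts matched GENCODE M21 for 8480 members, and start codons were read only where the listed ORF ran from an ATG to a stop codon there. With 2 biological replicates per condition the replicates limit the precision, and read numbers cover counting error only.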

Additional observations from a re-analysis of the deposited data

How the results depend on the processing

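No named gene changed sign under the alternatives run. The control reads filter was run on the UTRs and their ratios, where only 17 named calls could be tested, and all were kept. Other named UTR calls did not pass this filter and count neither as kept nor as lost in the totals below. The median log2 ratio over ORFs above 8000 nt (0.26) turned to -0.05 with the size factors exchanged and to -0.27 without harringtonine replicate 1, that up to 300 nt (-0.19) to 0.03 with equal total reads and to 0.12 without harringtonine replicate 2, and that from 4000 to 8000 nt to 0.11 without harringtonine replicate 2. The balance of higher and lower ORF calls turned with TMM scaling for histones, mitochondrial ribosomal proteins, the respiratory chain, initiation factors and proteasome subunits, and that of the 3' UTR ratio over all members went from 216 higher and 41 lower to nearly even. A supplementary transcript table of the study assigns the size factors of DMDA-PatA to harringtonine and the reverse, relative to the deposited values, and which assignment is right was not settled. With these factors exchanged, members higher and lower with harringtonine numbered 256 and 3945 on the ORF (107 and 1007 as reported) and 40 and 72 on the 3' UTR, and 300 were lower on the 5' UTR. With TMM scaling they were 1349 higher on the ORF, 804 and 704 for the 5' UTR, 52 and 74 for the 3' UTR, 593 and 382 for the 5' UTR ratio and 79 and 81 for the 3' UTR ratio. With the 2 drugs fitted alone, the ORF had 28 and 394 and the 3' UTR 18 lower. DESeq2 gave 8 and 16 on the 3' UTR and 130 and 26 for its ratio. Limma gave 45 higher on the 3' UTR. No low count filter gave 5 and 14, and the control reads filter, added after the data were seen, 5 higher on the 3' UTR and 919 higher on the 5' UTR. At least 10 reads in 2 libraries gave 377 higher 3' UTR ratios.

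The replicate numbers did not pair the libraries, with correlations of the deviations of -0.02 (ORF), -0.04 (5' UTR) and 0.01 (3' UTR). With the replicate number as a block, 55 members were higher and 712 lower on the ORF and 15 and 17 on the 3' UTR, and the other counts stayed within 1.5 times.

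Leaving out 1 library in turn, with a lone library assumed to vary like the other groups, moved the ORF counts from 7 to 401 higher and 222 to 3206 lower, the 5' UTR from 467 to 1388 and 46 to 137, the 3' UTR from 1 to 47 and 9 to 47, the 5' UTR ratio from 1774 to 2584 and 31 to 63 and the 3' UTR ratio from 101 to 163 and 22 to 32. The extremes on the ORF came without harringtonine replicate 2 (401) and replicate 1 (3206) and without puromycin replicate 1 (7) and replicate 2 (222). Of the named genes, 12 calls were lost and 464 kept over all settings in which they were tested.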

Other observations

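The counts of called ORFs below stand against 1.32% higher and 11.0% lower over all transcripts tested, and 14.0% and 14.2% with TMM scaling. Replication-dependent histones kept many ORF footprints with either drug. The median of their 50 members was 111% of the control with harringtonine and 135% with puromycin, and both libraries exceeded both controls in 14 members with harringtonine and in 24 with puromycin. Between the drugs 5 were higher and 8 lower with harringtonine by edgeR's quasi-likelihood test (median log2 fold change -0.29), and 11 and 9 with TMM scaling. Hist1h1b had ORF values of 16529 and 22202 in the control libraries, 18139 and 15869 under harringtonine and 27340.2 and 32237 under puromycin, and Hist1h1a had 27986 and 28136 in the control libraries, 16066 and 7365 under harringtonine and 15840.4 and 21922 under puromycin, and neither passed the test (adjusted p = 0.273 and 0.366). Members went far apart in both directions, as Hist1h2bn had 1795 and 1493 under harringtonine and 567 and 685 under puromycin (log2 fold change 1.39) and Hist3h2a 3747 and 1147 under harringtonine and 9748 and 10711 under puromycin (-2.06). These 2 were chosen after their values were seen, and reads shared by histone copies were left out by the authors.

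Cytosolic ribosomal proteins were as uneven. Of 33 members 11 were lower and 1 (Fau) higher with harringtonine (median -1.03), and 14 and 9 with TMM scaling. Rpl8 and Rpl4, which are among those with the highest control values, were not called: Rpl8 had 4429.8 and 3996 under harringtonine and 3623 and 4670.5 under puromycin and Rpl4 445 and 299 under harringtonine and 730.0 and 1039.5 under puromycin. Mitochondrial ribosomal proteins (69 members) had 8 lower and 3 higher with a median of -0.19, and the respiratory chain with ATP synthase (85) had 13 lower and 0 higher with a median of -0.33. With TMM scaling these turned to 14 lower and 20 higher, and to 17 lower and 25 higher. Lower and higher counts were 6 and 1 of 46 initiation factors, 0 and 0 of 10 elongation and termination factors, 4 and 0 of 36 proteasome subunits, 4 and 0 of 35 chaperones and 2 and 2 of 12 matrix proteins, so that the lower shares of initiation factors, proteasome subunits and chaperones lay near the background. With TMM scaling they were 8 and 11, 1 and 2, 5 and 11, 9 and 5, and 3 and 3. On the 5' UTR, chaperones had a median log2 fold change of 1.68, with 14 of 23 higher and 0 lower with harringtonine (backgrounds 27.7% and 3.13%), and with TMM scaling 11 and 1 (16.0% and 15.7%). Hsp90ab1, a cytosolic Hsp90, had 5' UTR values of 3646 and 2642 under harringtonine and 486 and 608 under puromycin, and Canx, a lectin chaperone of the ER, 477 and 505 under harringtonine and 261 and 215 under puromycin.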
